A study of Homo sapiens with 8 samples.

Results

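The matrix metalloproteinases (MMP), the membrane-anchored ADAM proteases, the secreted ADAMTS proteases, the ADAMTS-like proteins (ADAMTSL) and the tissue inhibitors of metalloproteinases (TIMP) were followed in a human breast cancer line in which ΔNp63α was switched on. These genes were chosen with earlier results of these data known. Every platform symbol that joins MMP, ADAM, ADAMTS, ADAMTSL or TIMP to a number was taken. This gave 72 of the 20042 genes with a probe of 1 symbol: 24 MMP, 21 ADAM, 18 ADAMTS, 5 ADAMTSL and 4 TIMP genes. Each gene was read from its brightest probe over the arrays.

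The cells were SUM159 trailblazers, cells of a human breast cancer line known for leading collective invasion, and were profiled on 8 single-colour Illumina bead arrays. All groups carried a doxycycline-inducible pLIX vector, which was empty in one line and held ΔNP63α-V5, the truncated p63 isoform of basal epithelium with a V5 tag, in the other. Each line was kept for 5 days without treatment or with 1 ug/ml doxycycline, which gave 4 groups of 2 arrays: empty vector without doxycycline, empty vector with doxycycline, uninduced ΔNp63α and induced ΔNp63α. The labels leave unstated whether either line is 1 clone and whether the replicates were separate cultures. The p-values therefore measure only the spread between these arrays, which may be technical. In bulk RNA, fewer cells that express a gene and less of its RNA per cell cannot be told apart.

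MMPs are zinc-dependent enzymes that cut collagens, basement membrane proteins and other proteases, and most are made as inactive precursors. ADAMs act mainly at the cell surface, where they shed growth factors, receptors and adhesion molecules, whereas ADAMTS enzymes are secreted and process proteoglycans, procollagens and other matrix proteins. ADAMTSL proteins share the matrix-binding modules of ADAMTS but lack the protease domain, and TIMPs bind and block the active sites of MMPs and of several ADAM and ADAMTS enzymes. In breast cancer these genes are studied for their part in matrix breakdown and invasion.

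The arrays of a group correlated at Spearman 0.970 to 0.975, and 12359 genes (61.7% of those named) were tested. Of the markers of a mesenchymal breast cancer line 6 of 6 were above background, among them VIM, whose deposited intensity lay between 12611 and 17134.8. Of 7 epithelial markers KRT8, KRT18 and GATA3 were above background, and CDH1, EPCAM, ESR1 and KRT19 were not on both arrays of any group. Of 5 endothelial markers 0 passed, of 5 blood cell markers CD14, LYZ and HBB passed at intensities of at most 152.5, and of 6 fibroblast markers 4 passed. The platform annotation gives TP63 0 probes, which leaves the induction itself unchecked on these arrays.

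Most of these proteases were not measurable in the cells on this platform. A gene was tested if its probe exceeded a background level of 114.3 in deposited intensity on both arrays of at least 1 group, and 29 of the 72 genes (40.3%) did: 8 MMP, 7 ADAM, 8 ADAMTS, 3 ADAMTSL and 3 TIMP genes. In 19 of them the probe was above that level on all 8 arrays. In 6 it was above on both arrays of 1 group only, which favours that group as the highest. These were MMP28 and ADAMTS14 (induced ΔNp63α), ADAMTSL1 (uninduced ΔNp63α), MMP20 and ADAMTS13 (empty vector without doxycycline) and ADAMTS1 (empty vector with doxycycline). Of the 29 tested genes, 7 had probes above 200 on every array: TIMP1, TIMP2, TIMP3, ADAM15, ADAM17, ADAM9 and ADAMTS9. These intensities belong to different probes and do not rank the genes by transcript number.

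Among the 43 genes not tested were all 3 interstitial collagenases (MMP1, MMP8 and MMP13), the gelatinase MMP9, the stromelysins MMP10 and MMP11, the matrilysins MMP7 and MMP26, and 5 of 6 membrane-type MMPs. MMP14, the membrane-type enzyme that activates proMMP2 at the cell surface, read from 106.0 to 116.2 over the arrays, and MMP9 from 97.4 to 107.2. The others were MMP12, MMP23A and MMP27, and among the membrane-type enzymes MMP15, MMP17, MMP24 and MMP25. A gene with a probe at background may still be transcribed at a level the probe does not resolve. The cluster of 9 neighbouring MMP genes on chromosome 11 (MMP7, MMP20, MMP27, MMP8, MMP10, MMP1, MMP3, MMP12 and MMP13) held 2 tested genes, MMP20 and MMP3.

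The ADAM genes not tested were ADAM5, ADAM6, ADAM8, ADAM11, ADAM18, ADAM20, ADAM21, ADAM22, ADAM23, ADAM28, ADAM29, ADAM30, ADAM32 and ADAM33. Several of them are known mainly from testis or brain or lack a working active site. The ADAMTS and ADAMTSL genes not tested were ADAMTS3, ADAMTS5, ADAMTS8, ADAMTS10, ADAMTS12, ADAMTS16, ADAMTS17, ADAMTS18, ADAMTS19, ADAMTS20, ADAMTSL2 and ADAMTSL3, and TIMP4 was the 1 inhibitor not tested. In 24 of the 43 genes the probe exceeded the level on 0 arrays, and the highest intensity in the rest was 121.8. The tested genes nearest the level were ADAMTS13 and ADAMTS1, whose dimmer array in their brightest group read 115.6 and 115.9, and the untested ones nearest it were MMP25 at 114.2 and ADAM6 at 113.8.

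**Figure D1:**
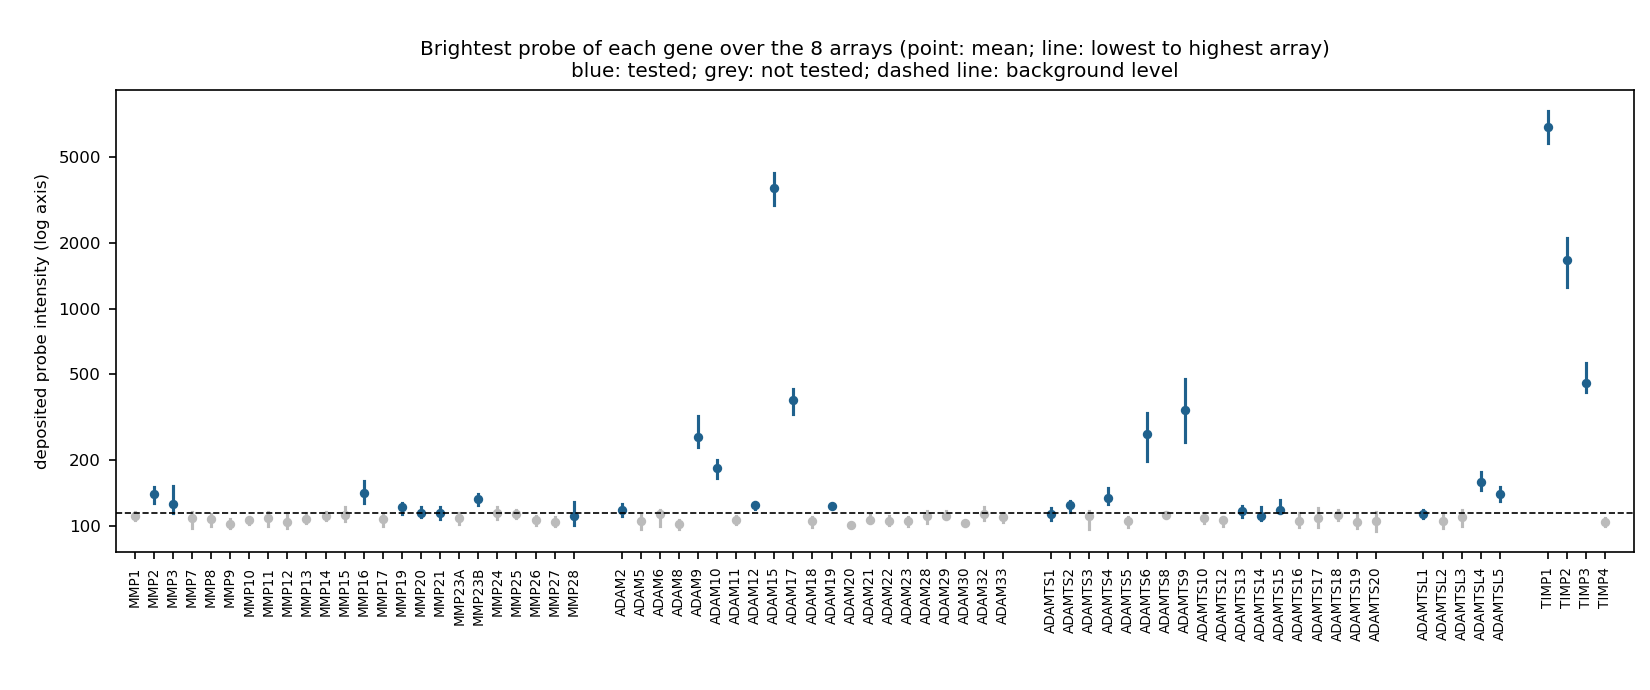
Deposited intensity (log axis) of the brightest probe of each of the 72 genes, grouped by family, with the mean of 8 arrays as a point and the lowest to highest array as a line. The 29 tested genes are blue, and of the MMPs none had a mean above 150, close to the dashed background level of 114.3.

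The first comparison asked what ΔNp63α induction does to these genes, by setting the induced against the uninduced ΔNp63α arrays. MMP28 (epilysin), a secreted MMP known from keratinocytes, rose, and the other 28 tested genes did not pass limma's test at an adjusted p of 0.05. Over all 12359 genes 2.73% passed (337 genes), 1.43% higher and 1.29% lower, so 1 of 29 is near that share. The median log2 difference was 0.02 over the 29 genes and -0.01 over all genes tested, with 15 genes above 0 and 14 below. The differences ran from -0.32 for TIMP2 to 0.57 for ADAMTS9, and 0 of the 29 exceeded 1 log2 unit in size, against 61 called genes in the whole set.

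MMP28 (probe ILMN_2399016) read a log2 intensity of 5.95 and 6.02 on the empty-vector arrays without doxycycline and 5.96 and 5.82 with it. It read 5.98 and 5.80 on the uninduced ΔNp63α arrays and 6.39 and 6.33 on the induced ones. The induced arrays were higher than all others and the other 3 groups overlapped. The log2 difference on induction was 0.46 ± 0.11 (SE, n = 2 arrays per group, limma adjusted p = 0.0435), or at least 1.17-fold, since the probe was not above background on the uninduced arrays. Because it passed the background filter through the induced group alone, it could be tested only if it was higher there. It has 2 further probes, which did not pass the background filter and read from 104.9 to 118.5 and from 103.4 to 117.7. The call did not hold without any of 6 arrays: ΔNp63α without doxycycline replicate 1 or 2, ΔNp63α with doxycycline replicate 1 or 2, and empty vector without doxycycline replicate 1 or 2, with adjusted p up to 0.255, and it was also lost without background correction (0.28, adjusted p = 0.105), when only the arrays compared were fitted (adjusted p = 0.104) and when every probe was tested as its own feature (adjusted p = 0.0600).

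**Figure D2:**
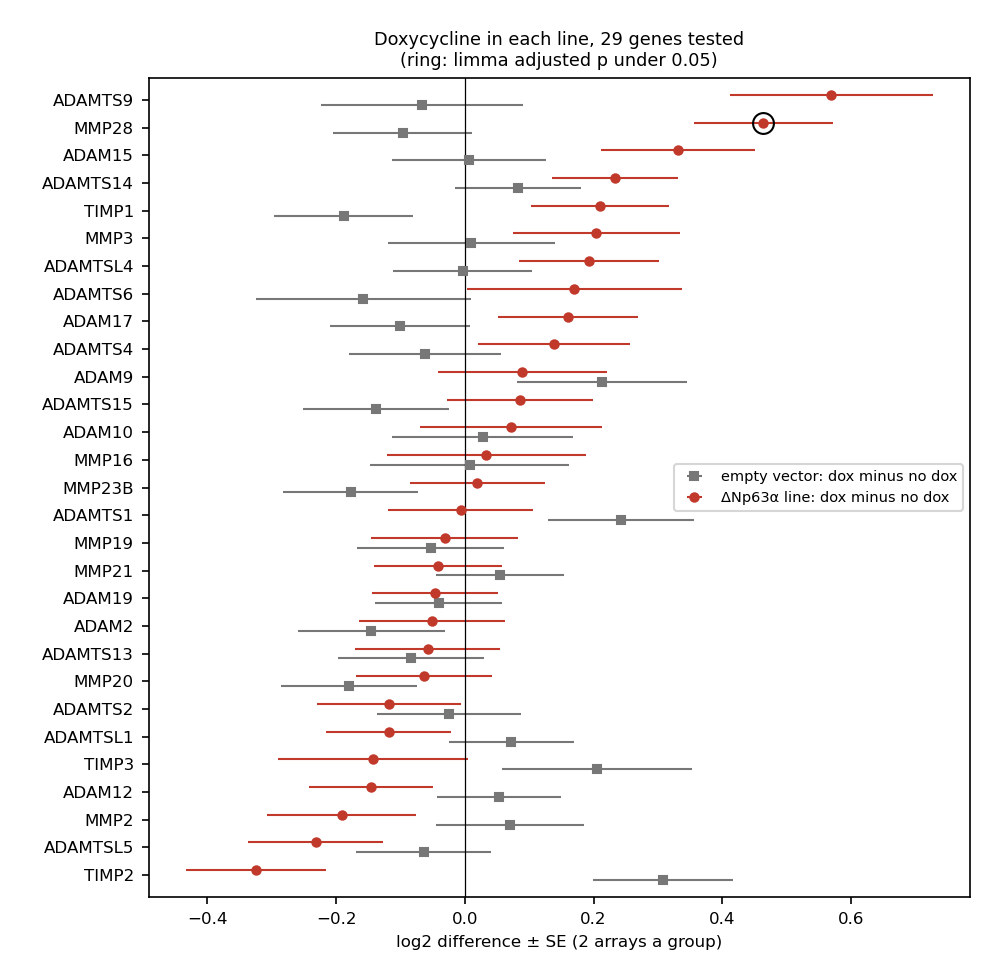
Log2 difference with doxycycline (x axis, ± SE, 2 arrays a group) in the ΔNp63α line (red circles) and in the empty-vector line (grey squares) for the 29 tested genes, ordered by the ΔNp63α line. The ring marks the 1 call, MMP28 at 0.46, and TIMP2 lies at -0.32 in the ΔNp63α line and 0.31 in the empty vector.

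Of the other tested MMPs, MMP2 (gelatinase A) had group means of 6.51 and 6.58 in the empty vector without and with doxycycline and of 6.70 and 6.51 in the uninduced and induced ΔNp63α line. Its difference on induction was -0.19 (95% confidence interval -0.44 to 0.06, limma adjusted p = 0.535). MMP3 (stromelysin-1), which also activates other MMPs, had means of 6.20 and 6.21 in the empty vector and 6.37 and 6.57 in the ΔNp63α line. The 2 induced arrays of MMP3 were apart, at 6.40 and 6.75, and the lower one lay below the higher uninduced array at 6.47. Its difference on induction was 0.20 ± 0.13. MMP16 (a membrane-type MMP), MMP19, MMP20 (the enamel protease enamelysin), MMP21 and MMP23B differed by between -0.06 and 0.03, and MMP23B has a near-identical copy, MMP23A, that its probe may not separate.

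Among the ADAM genes 0 of 7 passed on induction, with differences from -0.15 to 0.33. An unadjusted p under 0.05 was reached by 1674 of the 12359 genes tested and by 1 of the 7. That gene was ADAM15 (metargidin), a membrane protease whose disintegrin domain binds integrins. ADAM15 read 11.73 and 11.86, then 11.68 and 11.92, on the empty-vector arrays without and with doxycycline, and 11.54 and 11.72, then 11.90 and 12.02, on the uninduced and induced ΔNp63α arrays. The induced arrays were above the uninduced ones, and the higher empty-vector array with doxycycline lay between the induced pair. The difference was 0.33 ± 0.12 (limma adjusted p = 0.219), and 3 further probes of ADAM15 read 0.20, -0.12 and 0.25.

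ADAM17, the sheddase of TNF and of several EGFR ligands, had a mean of 8.54 ± 0.05 in the empty vector and 8.20 ± 0.09 in the ΔNp63α line without doxycycline (SD, n = 2). With doxycycline the means were 8.44 ± 0.15 and 8.36 ± 0.05. Its difference on induction was 0.16 (95% confidence interval -0.08 to 0.40), and 2 further probes read -0.02 and 0.10. ADAM10, which sheds Notch receptors and cadherins, had group means between 7.09 and 7.16, and its difference on induction was 0.07 (95% confidence interval -0.24 to 0.38). The replicate arrays of ADAM10 lay at 7.29 and 6.94 in the empty vector without doxycycline and at 7.13 and 7.15 with it.

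ADAM9, a membrane protease that sheds growth factor precursors, had means of 7.70 and 7.92 in the empty vector and 7.56 and 7.65 in the ΔNp63α line, a difference of 0.09 on induction. ADAM12 (meltrin α) had means of 6.29, 6.34, 6.38 and 6.23 in the empty vector without and with doxycycline and the uninduced and induced ΔNp63α line. Its brightest probe read -0.15 on induction and a further probe read 0.20, so the probes of ADAM12 disagreed in sign. ADAM19 (meltrin β) read -0.05 and ADAM2, a sperm protein without a working active site, -0.05.

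Of the ADAMTS and ADAMTSL genes 0 of 11 passed on induction, while 3 had an unadjusted p under 0.05: ADAMTS9, ADAMTS14 and ADAMTSL5. Such a p was reached on induction by 1674 of the 12359 genes tested. ADAMTS9, a secreted protease of versican and aggrecan, had the largest difference of the 29 genes. It read 7.78 and 8.04 in the empty vector without doxycycline and 8.06 and 7.63 with it. In the ΔNp63α line it read 8.01 and 8.34 without and 8.75 and 8.74 with doxycycline. The induced arrays were above all 6 others, and the other 3 groups overlapped. The difference on induction was 0.57 ± 0.16, or 1.48-fold (limma adjusted p = 0.0960, 95% confidence interval 0.22 to 0.91).

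ADAMTS14, a procollagen N-proteinase, had means of 5.94, 6.03 and 5.99 in the empty vector without and with doxycycline and the uninduced ΔNp63α line, where it was not above background on both arrays, and 6.22 in the induced cells. It too passed the filter through the induced group alone, and its difference of 0.23 was at least 1.07-fold (limma adjusted p = 0.318). ADAMTS2, the main procollagen N-proteinase of skin, read 6.31, 6.28, 6.39 and 6.27 in the same order of groups and differed by -0.12. ADAMTS4, an aggrecanase, had means of 6.48, 6.42, 6.43 and 6.57, and its induced arrays lay apart at 6.42 and 6.72. ADAMTS15, a further proteoglycan protease, had means of 6.31, 6.17, 6.12 and 6.21, and ADAMTS1 and ADAMTS13, the protease of von Willebrand factor, differed by -0.01 and -0.06.

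ADAMTS6, a close relative of the fibrillin-associated ADAMTS10, had the widest spread among the induced arrays. It read 7.99 and 8.16 in the empty vector without doxycycline, 7.93 and 7.90 with it, 7.48 and 7.34 in the uninduced ΔNp63α line and 7.89 and 7.27 in the induced line. Its difference on induction was 0.17 ± 0.17, and it turned to -0.14 without ΔNp63α with doxycycline replicate 1. ADAMTSL4 and ADAMTSL5, which bind fibrillin microfibrils, and ADAMTSL1 (punctin) lack a protease domain. ADAMTSL4 had means of 6.81, 6.81, 6.75 and 6.94 (difference 0.19, and 0.30 on a further probe). ADAMTSL5 had means of 6.59, 6.53, 6.70 and 6.47 (difference -0.23, limma adjusted p = 0.364), and ADAMTSL1 of 6.05, 6.12, 6.19 and 6.08 (difference -0.12). ADAMTSL1 passed the filter through the uninduced ΔNp63α group alone, so a lower value on induction was favoured by the filter.

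Of the inhibitors 0 of 3 passed on induction. TIMP1, a secreted inhibitor that also binds CD63, read 12.63 and 12.79 on the uninduced ΔNp63α arrays and 12.85 and 12.99 on the induced ones. The induced arrays were higher, and the difference was 0.21 (95% confidence interval -0.03 to 0.45, limma adjusted p = 0.439). TIMP2, which inhibits MMPs and also takes part in the activation of proMMP2, read 10.72 and 10.62 on the uninduced arrays and 10.44 and 10.24 on the induced ones. The induced arrays were lower, by -0.32 ± 0.11 (limma adjusted p = 0.178, unadjusted p = 0.0121), and by -0.21 on the mean of its 2 probes. TIMP3, the matrix-bound inhibitor that also blocks ADAM17, read 8.87 and 8.63 and then 8.63 and 8.58, a difference of -0.14 (95% confidence interval -0.47 to 0.18), and its groups overlapped.

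Of the genes called between the lines with doxycycline, TIMP1 alone had a promoter sequence available. This promoter is shown, and a variant AP-1 motif known from this gene lies in it. It spans 250 bases before to 50 after the start site on the plus strand of chromosome X (GRCh38.p14, chrX:47582186-47582485, RefSeq). Capitals mark the variant AP-1 motif.
TIMP1 promoter: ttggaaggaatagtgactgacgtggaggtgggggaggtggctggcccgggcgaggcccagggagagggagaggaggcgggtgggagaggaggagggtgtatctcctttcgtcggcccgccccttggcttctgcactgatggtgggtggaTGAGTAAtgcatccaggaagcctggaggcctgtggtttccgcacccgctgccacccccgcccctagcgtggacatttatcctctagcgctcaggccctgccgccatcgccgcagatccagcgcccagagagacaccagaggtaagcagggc
A promoter sequence was available for 43 of the 72 genes, 17 of the 29 tested genes among them. None was available for ADAMTS9, MMP28 and TIMP2. The variant TGAGTAA starts 101 bases before the annotated start of TIMP1. It is the 1 match, on either strand, in the promoters of those 43 genes, while 2.57% of 35116 promoters hold it. The motif was chosen because it is known from TIMP1, so this match was fixed in advance and does not single the gene out. The standard AP-1 motif, TGACTCA or TGAGTCA, was found in 1 of the 43, at 67 bases before the start of MMP7, beside 4.95% of all promoters. The p53-family half-site was found in 0 of the 43 genes and in 6.63% of all promoters, and genes without a sequence were not searched. A match is a description of these letters and not a binding site.

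On induction the groups did not overlap for 15 of the 29 genes, where 43.2% of all genes tested had groups that did not overlap. The median size of the log2 difference, regardless of sign, was 0.14 for the 29 genes and 0.11 for all genes tested.

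The effect of the drug without the p63 insert was read from the empty-vector arrays. There limma called 0 of the 29 genes and 0 of all genes tested (0%), where 1 of the 29, TIMP2, and 540 of all genes had an unadjusted p under 0.05. The differences ran from -0.19 for TIMP1 to 0.31 for TIMP2, with a median of -0.02. TIMP2 read 10.68 and 10.63 without doxycycline and 10.90 and 11.02 with it on its brighter probe (0.12 on the mean of both probes), and TIMP1 read 12.70 and 12.75 without and 12.49 and 12.59 with it. In these empty-vector cells the groups did not overlap for 10 of the 29 genes, TIMP1 and TIMP2 among them, beside 34.2% of all genes tested. TIMP3 read 8.60 and 8.53 without and 9.01 and 8.53 with doxycycline, so that 1 array set its difference of 0.21.

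Whether doxycycline acted differently in the ΔNp63α and empty-vector cells was tested as an interaction. limma called 0 of the 29 genes and 0.728% of all genes tested. An unadjusted p under 0.05 was reached by 1049 of the 12359 genes tested and by 4 of the 29. TIMP2 had the lowest p of those 4 genes, at -0.63 ± 0.15 (95% confidence interval -0.97 to -0.29, limma adjusted p = 0.115). MMP28 read 0.56 ± 0.15 (adjusted p = 0.173), ADAMTS9 0.64 ± 0.22 (adjusted p = 0.388) and TIMP1 0.40 ± 0.15 (adjusted p = 0.453) by limma. The dimmer TIMP2 probe, also above background, read -0.04 for the interaction (limma adjusted p = 0.982 with every probe as a feature), and the mean of the probes -0.33 (adjusted p = 0.503). The doxycycline differences in the empty-vector and ΔNp63α cells were -0.19 and 0.21 for TIMP1. For TIMP2 they were 0.31 and -0.32 on the brighter probe and -0.06 and -0.10 on the dimmer one.

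**Figure D3:**
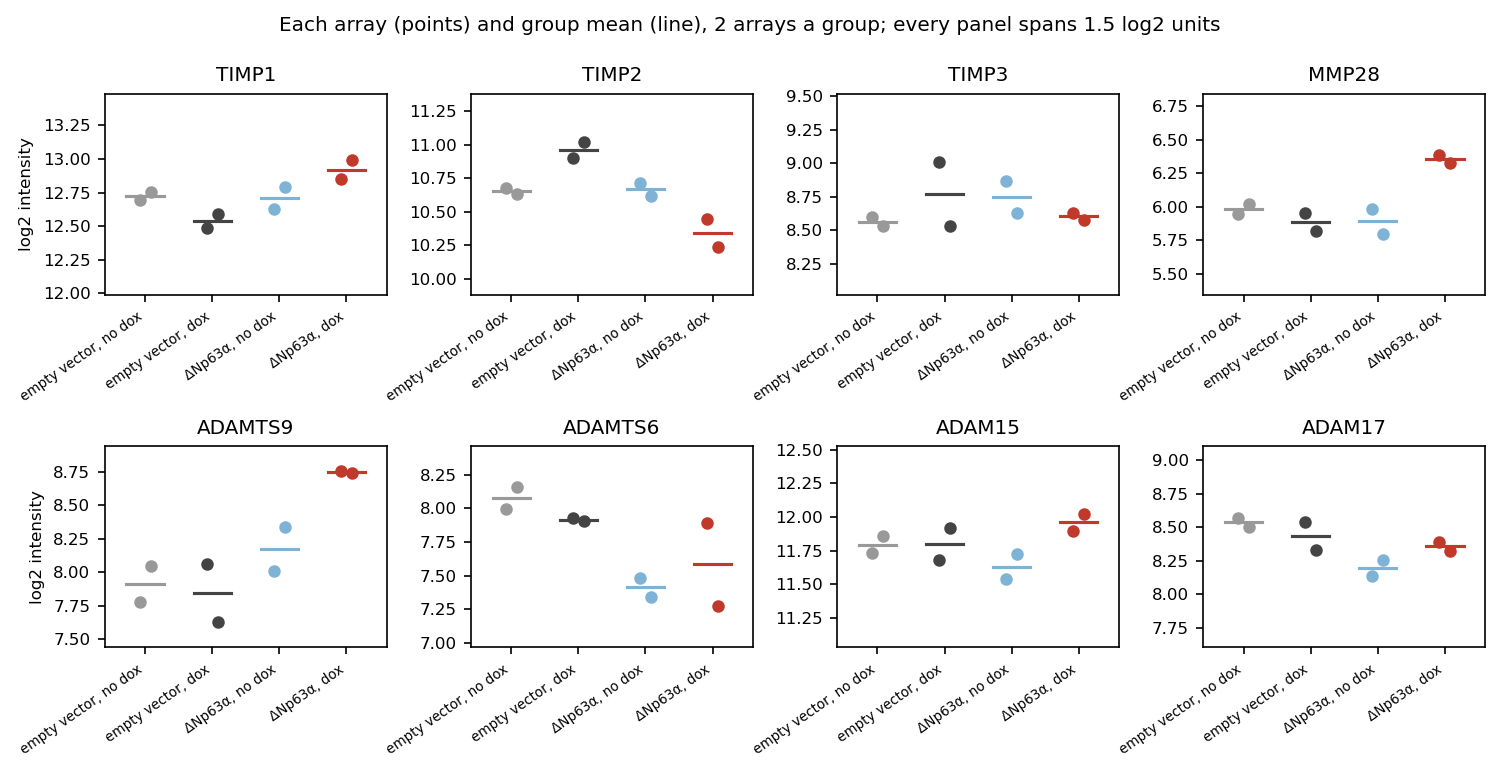
Log2 intensity of 8 genes on each of the 8 arrays (points, with the mean of the 2 arrays of a group as a line), each panel spanning the same range of 1.5 log2 units. The induced ΔNp63α arrays are highest for TIMP1, MMP28 and ADAMTS9 and lowest for TIMP2, and the 2 induced arrays of ADAMTS6 lie apart at 7.89 and 7.27.

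The lines were next compared before induction. limma called 0 of the 29 genes and 0.0485% of all genes tested. An unadjusted p under 0.05 was reached by 1237 of the 12359 genes tested and by 2 of the 29. These were ADAMTS6, lower in the uninduced ΔNp63α line by -0.66 ± 0.17 (limma adjusted p = 0.255), and ADAM17, at -0.34 ± 0.11 (adjusted p = 0.322). The ADAM17 value is from its brightest probe, and 2 further probes above background read 0.07 and -0.06. For both genes, the arrays of the lines did not overlap on the brightest probe, as for 16 of the 29 genes and 42.3% of all genes tested. ADAMTS6 passed when only those 4 arrays were fitted (limma adjusted p = 0.0367, at the same -0.66). TIMP1 and TIMP2 differed by -0.01 and 0.01, MMP28 by -0.09 and ADAMTS9 by 0.26.

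With doxycycline in both lines, the inhibitors TIMP1 and TIMP2 differed in opposite directions and the proteases ADAMTS9 and MMP28 were higher with ΔNp63α. TIMP2 was lower, by -0.62 ± 0.11, and TIMP1 was higher, by 0.38 ± 0.11 or 1.30-fold (limma adjusted p = 0.00546 and 0.0463). ADAMTS9 was higher by 0.90 ± 0.16 or 1.86-fold and MMP28 by 0.47 ± 0.11 or at least 1.17-fold (limma adjusted p = 0.00533 and 0.0197). MMP28 entered this test too through the induced group alone, so it could be tested only if it was higher there. limma thus called 4 of the 29 genes, 3 higher and 1 lower, where it called 9.76% of all genes tested (4.65% higher and 5.11% lower). This comparison shares the induced arrays with the first one and the empty-vector doxycycline arrays with the test of doxycycline alone.

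For TIMP2 the fold was 1.54 in favour of the empty vector, whose arrays at 10.90 and 11.02 were above all others, while the induced arrays at 10.44 and 10.24 were below all others. The TIMP2 call rested on the brighter of 2 probes: the dimmer one, at intensities from 161.1 to 178.6, read 0.05 in the same comparison (limma adjusted p = 0.832 with every probe as a feature), and the mean of the probes read -0.28 (adjusted p = 0.0920). For TIMP1 the induced arrays, at 12.85 and 12.99, were above and the empty-vector doxycycline arrays, at 12.49 and 12.59, below all others. For ADAMTS9 the confidence interval ran from 0.55 to 1.24.

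Each of the 4 calls was lost in at least 1 fit with a single array left out, and such a fit leaves 1 array in a group. Over those 8 fits the differences kept their sign. They ran from 0.68 to 1.11 for ADAMTS9, -0.72 to -0.52 for TIMP2, 0.40 to 0.53 for MMP28 and 0.31 to 0.45 for TIMP1. Without empty vector with doxycycline replicate 2 limma called 0 of the 29 genes (ADAMTS9 0.68, TIMP2 -0.56, MMP28 0.40 and TIMP1 0.44), and 380 of all genes in place of 1206. Without ΔNp63α with doxycycline replicate 2 it called ADAMTS9 alone, and 401 of all genes, while TIMP2 read -0.52, TIMP1 0.31 and MMP28 0.50. Without ΔNp63α with doxycycline replicate 1 MMP28 (0.44) and TIMP1 (0.45) were not called, while ADAMTS6 (-0.64, limma adjusted p = 0.0172) and MMP3 (0.53, adjusted p = 0.0401) were. TIMP1 was also not called without empty vector with doxycycline replicate 1 (0.33) or without empty vector no-doxycycline replicate 1 or 2 (0.38, adjusted p = 0.0733).

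**Figure D4:**
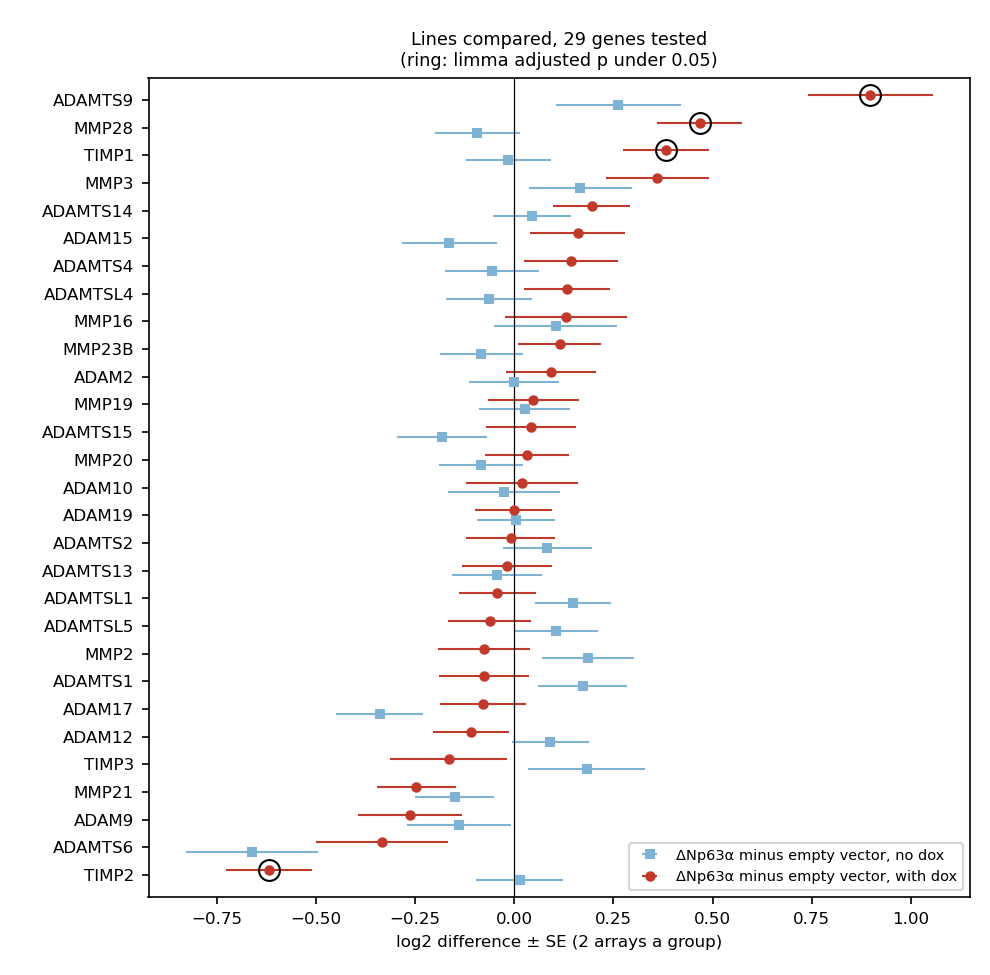
Log2 difference between the ΔNp63α and the empty-vector line (x axis, ± SE, 2 arrays a group) with doxycycline (red circles) and without (blue squares) for the 29 tested genes. Rings mark the 4 calls, all with doxycycline: ADAMTS9 at 0.90, MMP28 at 0.47, TIMP1 at 0.38 and TIMP2 at -0.62.

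Of the genes not called in that comparison, MMP3 had the next largest positive difference, at 0.36 ± 0.13 (limma adjusted p = 0.109). ADAMTS6 read -0.33 (-0.64 and called without ΔNp63α with doxycycline replicate 1), ADAM9 -0.26 and MMP21 -0.25, and the ADAM genes as a group had 0 of 7 calls with differences from -0.26 to 0.16. The groups did not overlap for 13 of the 29 genes, beside 52.3% of all genes tested. The median difference was 0.02 over the 29 genes and 0.00 over all genes tested.

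The genes around the proteases were taken from 6 lists, whose counts on induction stand beside 2.73% of all genes called, 1.43% higher and 1.29% lower. The lists were chosen with earlier results of these data known, so these counts only describe them. Of 25 measured activators, inhibitors and receptors of matrix proteases, 3 rose on induction and 0 fell, with a median of 0.02: SH3PXD2A (TKS5), a scaffold of invadopodia, by 1.31 ± 0.11 (limma adjusted p = 7.97e-05), the serpin SERPINB5 by 1.27 ± 0.10 and the plasminogen activator PLAT by 0.82 ± 0.14. SH3PXD2A and SERPINB5 also passed the interaction (1.36 and 1.24, limma adjusted p = 0.00182 and 0.00125), as did 0.728% of all genes. The interaction shares the arrays of the induction comparison, so it is not separate evidence. The proprotein convertase FURIN, which activates membrane-type MMPs and ADAMs, read 0.07, the membrane-anchored MMP inhibitor RECK 0.05 and the MMP inducer BSG 0.29, and none of these passed.

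Of 8 measured partners of ADAM10 and ADAM17, 0 passed in any of the 5 comparisons. Of all genes 0% to 9.76% passed in these comparisons, so 0 of 8 is near those shares. The partners included the iRhoms RHBDF1 (-0.08) and RHBDF2 (0.19), which carry ADAM17 to the cell surface. Of 27 measured ADAM sheddase substrates, 2 rose and 3 fell on induction (median -0.03), beside 1.43% and 1.29% of all genes. Syndecan SDC1 rose by 1.74 ± 0.15 and the EGFR ligand EREG by 0.76 ± 0.15, and the ligand NRG1 (-0.78 ± 0.12), N-cadherin CDH2 (-0.51 ± 0.11) and the receptor AXL (-0.64 ± 0.12) fell. In 2 of these 5, SDC1 (1.68) and NRG1 (-1.10), the interaction, which shares those arrays, passed as well (limma adjusted p = 0.00369 and 0.0138). Of all genes 0.728% passed it.

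On induction, where 1.43% of all genes rose and 1.29% fell, 0 of 16 measured ADAMTS substrates rose and 3 fell (median -0.27): the collagen chain COL3A1 (-0.83 ± 0.12) and the proteoglycans BGN (-0.60 ± 0.13) and DCN (-0.45 ± 0.10). Their probes were dim, at intensities of 109.7 to 205.8, 130.9 to 204.7 and 117.4 to 162.1, beside a background level of 114.3. Of these 3, COL3A1 passed the interaction (-0.87, limma adjusted p = 0.0443), and BGN and DCN did not. Of the 6 markers of the mesenchymal state CDH2 and AXL fell as well, and DCN is also among the fibroblast markers, and the part of such cells or states in these values was not tested. Versican (VCAN), a substrate of ADAMTS9, read -0.15 and did not pass. Of 22 measured MMP substrates of matrix and basement membrane, 3 rose and 5 fell (median 0.03) beside the same shares of all genes, with COL3A1, BGN and DCN counted again. Tenascin TNC (0.66), the basement membrane collagen COL4A6 (0.58) and the laminin chain LAMB3 (0.53) rose, and the matricellular proteins CCN2 (-1.04) and SPARC (-0.51) fell. Of 28 measured transcription factors known at MMP promoters, FOSB rose (0.48 ± 0.11, limma adjusted p = 0.0450) and 0 fell, with a median of 0.04, and 1 of 28 is near the 2.73% of all genes called.

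With doxycycline in both lines, where 9.76% of all genes passed, 4 of the 25 regulators were higher and 3 lower in the ΔNp63α line. This comparison includes any difference between the lines that was present without doxycycline. Without doxycycline 1 of the 25 regulators was called lower in the ΔNp63α line and 0 higher, where 0.0485% of all genes passed. With doxycycline, 8 of the 27 sheddase substrates were higher and 5 lower, and of the 16 ADAMTS substrates 0 were higher and 5 lower. Of the 22 MMP substrates 3 were higher and 6 lower, and of the 28 transcription factors 1 was higher and 2 lower. The 2 lower factors, ATF3 and FOSL1, read -0.69 and -0.63 there. Between the lines without doxycycline they read -0.41 and -0.41, not called, and on induction -0.19 and -0.03.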

How the data were processed

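Biotin-labelled cRNA from total RNA was hybridised to Illumina bead arrays, per the labels' protocols. The values used were probe intensities on a linear scale, deposited by the authors for 47304 probes on 8 arrays. The normalisation behind these deposited intensities is not given in the sources used here. Each array had a median of 113.5, and ranked intensities of any array deviated by at most 0.175 from their average, so the arrays were not normalised again. A further deposited table was not used, because its 16 columns of per-sample values match no sample label.

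normexp background correction with an offset of 50 and log2 transformation were done in limma 3.58.1 (R 4.3.3). A fold change therefore understates the change of dim probes. The background level was the mode of the deposited intensities, 106.9, plus 1.645 times the SD of 4.52 below it. The limma model held a mean for each group of the 8 arrays (4 residual and 7.47 prior degrees of freedom), with two-sided tests and Benjamini-Hochberg adjustment over 12359 genes at 0.05. The fit was tested on simulated data. Probe symbols came from the platform annotation (30105 probes with 1 symbol, 8 with several, 17191 unnamed), and all 72 genes kept their symbol through Entrez identifiers. Folds marked "at least" set the brighter mean against the dimmer group's background.

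Values were given for genes called in any of the 5 comparisons and for the 20 with the largest differences on induction. The genes and lists were chosen with earlier results of these data known. Alternatives covered background correction, offset, scaling, filter, probe choice, arrays fitted, robust eBayes, a replicate block and each array left out.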

Additional observations from a re-analysis of the deposited data

How the results depend on the processing

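On induction limma called 1 of the metalloproteinase and inhibitor genes, MMP28. This count was 0 without background correction, with every probe as its own feature and with only the arrays compared. It was also 0 with genes above background on all 8 arrays, where MMP28 was not tested. It was 2 without the filter, where MMP7 (-0.40, adjusted p = 0.0423) was added, and 0 to 1 with single arrays left out. For all genes the count on induction (337) was 181 with only the arrays compared and 121 to 341 with single arrays left out. The interaction count (90) was 59 without background correction and 33 to 98 with arrays left out. Between the lines without doxycycline the count (6) was 3 without background correction, 18 with an offset of 16, 11 with median centring, 11 without the filter, 37 with only the arrays compared and 0 to 9 with arrays left out. ADAMTS6 was then the 1 member called with only the arrays compared. Between the lines with doxycycline the count over all genes (1206) was 718 with only the arrays compared and 380 to 1159 with arrays left out, and over the members 0 to 4. TIMP1 there was not called with an offset of 16 (0.39, adjusted p = 0.111), with every probe as its own feature (0.38, adjusted p = 0.0583) or with only the arrays compared (0.38, adjusted p = 0.0898). 0 called values changed sign, and the cause of these changes was not tested.

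With the replicate number as a block, the counts over all genes were 500 on induction, 155 for the interaction, 27 between the lines without and 1659 with doxycycline. Among the members MMP3 (0.36, adjusted p = 0.0438) joined the calls with doxycycline, and the block ended no call. The labels do not say what a shared number stands for, and same-numbered deviations correlated from 0.0401 to 0.433. A slide block was not run, because no label or header ties arrays to slides. Having 2 arrays a group and probes near background limit the precision.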
